A study of Mus musculus with 12 samples.

Results

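The genes described here are 10 bile acid and organic anion transporters of the hepatocyte, chosen by name: 5 that take solutes up from sinusoidal blood, 3 that export into the bile canaliculus and 2 that export back across the basolateral membrane. All 10 were found among the 20143 genes of the deposited table, and all 10 passed the filter on low values that left 9186 genes for testing. The samples were livers of Hsd17b13 knockout mice (KO, n = 6) and wild-type mice (WT, n = 6), sequenced with 1 RNA library per mouse. Both groups ate CDAA-HFD, a choline-deficient high-fat diet that gives a fatty, inflamed and scarred liver, over 12 weeks that began when the mice were 8 to 10 weeks old. The labels state neither how the knockout was made nor the strain, sex or litter of the mice, and no group on ordinary chow was analysed here, so the values say nothing of what the diet itself did.

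Bile acids circulate between liver and gut, and the hepatocyte takes them up at its sinusoidal face with sodium-coupled and sodium-independent carriers and pumps them into bile with ATP-driven exporters. Phosphatidylcholine is flopped into bile beside them and protects the duct lining from their detergent action. When outflow into bile is impaired, the basolateral exporters, which are otherwise minor routes, let the cell return bile acids and conjugates to the blood. The bile acid receptor FXR, encoded by Nr1h4, is the best known regulator of this system and raises transcription of the main bile salt exporter gene, Abcb11.

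FXR binds with its partner RXR to an inverted repeat of a nuclear receptor half-site with a spacer of 1 base, and the promoter windows of the set that hold such a repeat are shown because they belong to 1 exporter and 1 uptake carrier. In the RefSeq tables (GRCm38.p6, the same assembly as mm10), 9 of the 10 transporters had a promoter window, Abcc3 being the other one. The 250 bases before each start were searched on both strands for the half-sites AGGNCA and TGACCT with any 1 base between them, whose letters were settled after the Abcb11 window had been seen. A match was present in 2 of the 9, Abcb11 and Slco1b2, and in 11 of all 27025 genes with a window, or 0.0407%. Since the letters were settled with the Abcb11 window in view, its match was fixed in advance. The 2 shares therefore cannot be set against each other as a test. With AGGTCA, the unrelaxed half-site, in the place of AGGNCA, a match was in 0 of the 9 and in 2 of the 27025. The Abcb11 stretch lies at chr2:69342617-69342866 on the minus strand and the Slco1b2 stretch at chr6:141629268-141629517 on the plus strand. The match, in capitals, runs from -63 to -51 before the Abcb11 start and from -88 to -76 before the Slco1b2 start. A match is a likeness of letters and not a measured binding site.
Abcb11: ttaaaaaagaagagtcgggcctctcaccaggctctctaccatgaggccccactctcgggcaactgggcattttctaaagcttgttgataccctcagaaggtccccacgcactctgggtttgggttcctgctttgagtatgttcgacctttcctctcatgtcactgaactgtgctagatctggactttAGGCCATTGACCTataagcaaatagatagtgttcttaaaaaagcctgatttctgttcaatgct
Slco1b2: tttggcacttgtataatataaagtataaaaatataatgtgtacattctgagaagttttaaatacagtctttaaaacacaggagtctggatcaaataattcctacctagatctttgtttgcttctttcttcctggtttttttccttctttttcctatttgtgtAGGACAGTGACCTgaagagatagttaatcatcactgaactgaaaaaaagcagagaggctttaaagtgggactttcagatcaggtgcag

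Values are CPM, counts scaled by the authors to the same total in each library. From the step between low values, 1 CPM stood for 59.0 ± 11.1 counts in KO and 62.4 ± 9.08 counts in WT (SD, n = 6 each), with the 12 libraries between 46.3 and 77.9 counts. Even the scarcest transporter reading, of Abcc4, stood on 573 counts, and counting error was at most 4.18% for any value of the set. Every library followed its label, with Hsd17b13 at 0.956 to 1.40 CPM in KO and 315 to 393 CPM in WT. Every library also carried the Y-linked Ddx3y, at 50.5 to 72.4 CPM in KO and 42.0 to 70.4 CPM in WT, while Xist stood at 0.230 to 1.36 CPM in KO and 0.192 to 0.969 CPM in WT. The summed level of 10 hepatocyte markers ran over 17076 to 19325 CPM in KO and 15677 to 21063 CPM in WT, and limma gave 0 of the 10 an unadjusted p under 0.05, with 9 of 10 differences positive. The 10 cholangiocyte markers summed to 182 to 373 CPM in KO and 316 to 887 CPM in WT. The largest part of that sum was Spp1, at a mean of 182 CPM in KO and 384 CPM in WT. Spp1 lies on chromosome 5, as Hsd17b13 does. The 6 Kupffer cell markers summed to 319.7 to 489 CPM in KO and 195 to 336 CPM in WT. In each of these lists 4 markers were tested and limma called 0, while 4 of 4 had an unadjusted p under 0.05, lower in KO for cholangiocytes (5.29% of all tested genes) and higher in KO for Kupffer cells (4.51%). Markers of other macrophages summed to 821 to 1242 CPM in KO and 1224 to 2142 CPM in WT, with 4 of 6 lower at an unadjusted p under 0.05. Stellate cell and myofibroblast markers summed to 514 to 649 CPM in KO and 629 to 1092 CPM in WT. All 5 tested had an unadjusted limma p under 0.05, 4 lower in KO (5.29% of all tested genes) and 1 higher (4.51%). The one higher was Lrat, at 52.2 CPM in KO and 38.3 CPM in WT, so the sum hides opposite directions. Endothelial markers summed to 243 to 353 CPM in KO and 236 to 305 CPM in WT. All 6 differences were positive, and 2 of the 6 had an unadjusted limma p under 0.05 (4.51% of all tested genes, higher in KO). Of 7 periportal hepatocyte markers, 2 had an unadjusted limma p under 0.05, both higher in KO (4.51% of all tested genes). Of 7 pericentral hepatocyte markers, 0 did. Limma called 0 of these as well, but with the minimum lowered to 1 CPM it called the cholangiocyte marker Krt7 (adjusted p = 0.0495) and the stellate cell marker Dpt (adjusted p = 0.0473), both lower in KO. The part of these cells in the transporter values was not tested. No cholangiocyte or Kupffer cell marker averaged 0, the scarcest being Timd4 at 0.804 CPM in KO and 0.626 CPM in WT. In bulk liver, fewer cells of a type and less RNA per cell cannot be told apart.

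The question put to the 10 genes was whether their mRNA differed when Hsd17b13 was missing. None passed the test: limma called 0 of 10 at an adjusted p of 0.05 over all genes, where it called 0.152% of the 9186 genes tested, 0.109% higher and 0.0435% lower in KO. Before adjustment, 1 of 10 had a p under 0.05, Slco2b1, higher in KO, against 9.8% of all genes, 4.51% higher and 5.29% lower in KO. In 0 of 10 were the KO and WT mice fully separated, against 0.893% of all genes. Differences were positive in 7 of 10, against 45.6% of all genes, and their median was 0.14 on the log2 scale, against -0.01 over all genes tested. The 3 negative differences were those of Abcb11, Abcb4 and Abcc4, and with median-of-ratios scaling, which raised the median of all genes by 0.05, Abcb11 and Abcb4 came to 0.0086 and 0.00075. Adjusted p-values of limma ran from 0.335 to 0.949. The 10 transporters together held 3276 ± 212 CPM in KO and 3052 ± 172 CPM in WT (SD, n = 6 each), and the KO mice, at 2988 to 3524 CPM, overlapped the WT mice, at 2849 to 3364 CPM. Positive differences were also seen in 9 of 10 hepatocyte markers (median 0.10), so this lean was not particular to the transporters. The scaffold and trafficking genes described below had 3 of 10 positive (median -0.05). The log2 differences below are KO minus WT of log2(CPM + 1).

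**Figure D1:**
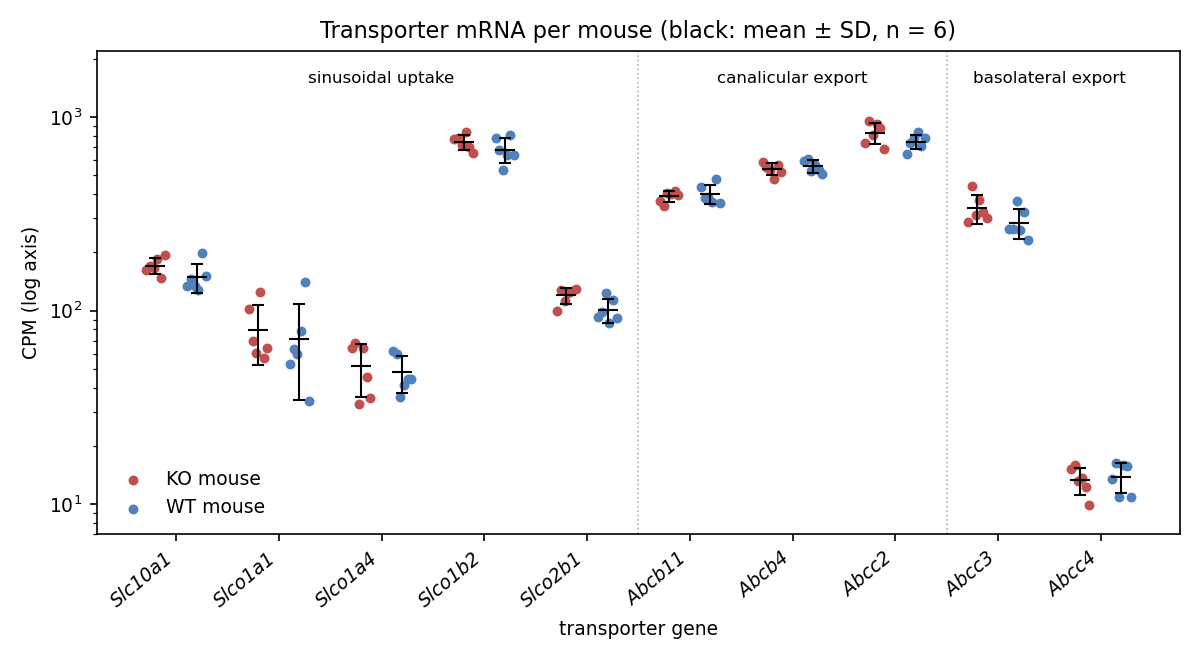
CPM of each transporter in every mouse on a log axis, with KO left of WT for each gene and the mean ± SD of 6 mice in black. The KO and WT points overlap for all 10 genes, and Slco1a1 has the widest spread, 34.2 to 141 CPM within WT alone.

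Of the uptake carriers, Slc10a1 encodes the sodium-dependent carrier that takes up most conjugated bile acids (ENSMUSG00000021135, chromosome 12, 80953183 to 80968705, mm10, protein coding). KO livers held 148, 168 and 194 CPM as the lowest, median and highest value, against 128, 140.4 and 199 CPM in WT livers. All 6 KO mice lay above the WT median and 4 of 6 WT mice lay below every KO mouse, but WT mouse 5, at 199 CPM, was the highest of all 12. The means were 170.5 ± 16.5 CPM in KO and 149 ± 26.0 CPM in WT (SD, n = 6 each). The log2 difference of 0.21 (SE 0.10) did not pass (limma adjusted p = 0.537), and its 95% interval ran from -0.01 to 0.42. Without WT mouse 5 the difference was 0.29 (limma adjusted p = 0.124), so that mouse lowered the value but did not decide the call.

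Slco1b2, the liver-specific sodium-independent carrier of bile acids, bilirubin conjugates and drugs, starts at 141629518 on chromosome 6 and begins a run of 317 kb that ends with Slco1a1 at 141946962 and holds Slco1a4 between them. Its lowest, median and highest values were 650.2, 743 and 838 CPM in KO and 535, 658 and 812 CPM in WT. KO mouse 4 lay above every WT mouse and 3 WT mice lay below every KO mouse, with wide overlap between. KO averaged 742 ± 67.0 CPM and WT 679 ± 101 CPM (SD, n = 6 each), a log2 difference of 0.14 (SE 0.10, limma adjusted p = 0.734). The 95% interval of the fold ran from 0.950 to 1.27, and without WT mouse 3 the log2 difference was 0.069.

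Slco1a1 and Slco1a4 are rodent carriers of bile acids, steroid conjugates and other organic anions, the first of them known in mice for higher expression in males. Slco1a1 was the most variable of the set, at 57.2, 66.7 and 124 CPM in KO and 34.2, 61.5 and 141 CPM in WT (lowest, median and highest). Its coefficient of variation was 34.3% in KO and 51.7% in WT, while counting error was at most 2.08%. With 1 library per mouse, differences between mice and between library preparations cannot be told apart. WT mice held both ends of the range, mouse 5 the highest and mouse 6 the lowest. The log2 difference of 0.22 had an SE of 0.28 (limma adjusted p = 0.877) and a 95% interval of -0.39 to 0.83, the widest of the 10. It moved to 0.08 without KO mouse 4, to 0.44 without WT mouse 5 and to 0.04 without WT mouse 6, with no call in any of these fits. As a fold, the interval ran from 0.763 to 1.78.

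Slco1a4 was the next most variable in either genotype, at 32.9, 54.9 and 67.9 CPM in KO and 35.7, 44.5 and 61.9 CPM in WT (lowest, median and highest). The KO mice spanned past the WT mice at either end, with 3 above every WT mouse and 2 below every WT mouse. The log2 difference was 0.07 (SE 0.20, limma adjusted p = 0.949), and leaving out 1 mouse moved it to between -0.014, without KO mouse 2, and 0.19, without KO mouse 3. The transcripts of Slco1a1 and Slco1a4 were 81.8% identical over 2893 aligned bases, and the closest relative of Slco1a4 was Slco1a5, 88.9% identical and not analysed here. By the longest alignment of each pair of genes, none reached 95% identity over at least 500 bases to any of the 10 transporters. Shorter alignments of a pair were not read.

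Slco2b1, a sodium-independent carrier of steroid sulfates and drugs that is found in many tissues, came nearest to a call. The values were 99.7, 125 and 130.2 CPM in KO and 86.6, 95.9 and 123 CPM in WT (lowest, median and highest). KO mice 2, 5 and 6 lay above every WT mouse and 4 WT mice lay below every KO mouse, while WT mice 3 and 5 lay among the KO mice. KO averaged 119.8 ± 11.8 CPM and WT 101 ± 14.2 CPM (SD, n = 6 each). The log2 difference of 0.25 (SE 0.09, 95% interval 0.05 to 0.45) had an unadjusted p of 0.0179 and a limma adjusted p of 0.335. An exact two-sided permutation test over the 924 assignments of mice gave p = 0.0368, the smallest of the 10 such tests, which reached up to 0.747. An antisense gene, Gm15635, overlaps Slco2b1 and averaged 4.04 CPM. The overlap is of whole gene spans, introns included, and the strand setting of the counting is unknown here. Whether either gene was credited with reads of the other was not tested. The Kupffer cell markers given above also had higher KO sums, and their part in this difference was not tested.

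**Figure D2:**
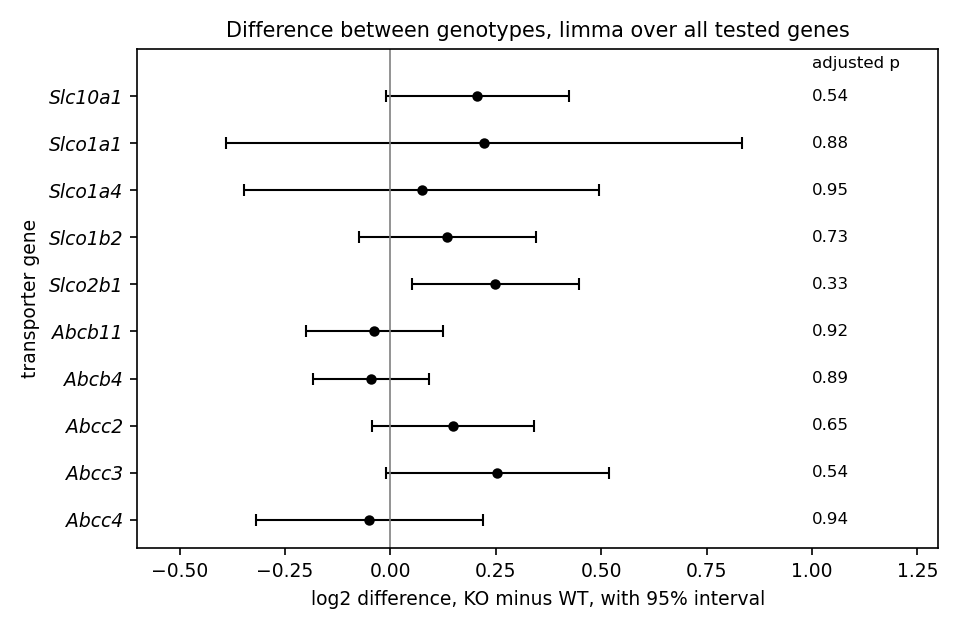
Log2 difference of each transporter, KO minus WT, with its 95% interval from limma and the adjusted p at the right. The interval of Slco2b1 alone lies clear of 0, at 0.05 to 0.45, and its adjusted p is 0.335.

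On the canalicular side, Abcb11 encodes the bile salt export pump, whose activity limits bile acid secretion (ENSMUSG00000027048, chromosome 2, 69238282 to 69342616, mm10, protein coding). Its lowest, median and highest values were 348, 399 and 417 CPM in KO and 359, 386 and 477 CPM in WT. The 2 groups lay on the same ground, with KO mouse 2 below every WT mouse and no KO mouse above every WT mouse. KO averaged 389 ± 25.8 CPM and WT 401 ± 45.9 CPM (SD, n = 6 each), a fold of 0.974 with a 95% interval of 0.870 to 1.09 (limma adjusted p = 0.92). Its antisense gene Gm13613, subject to the same limit, averaged 1.24 CPM. Abcb11 and Slco1b2, the 2 genes whose promoters are printed above, had log2 differences of -0.04 and 0.14, neither of which passed.

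Abcb4 encodes the floppase that moves phosphatidylcholine into bile and is the only one of the 10 on chromosome 5, which also carries Hsd17b13. It lies at 8893717 to 8959231 (mm10), 95 Mb from that gene. KO livers held 480.4, 543 and 586 CPM and WT livers 510.4, 550.4 and 609 CPM (lowest, median and highest). The ranges overlapped, with KO mouse 4 alone below every WT mouse. The coefficient of variation was 6.91% in KO and 7.20% in WT, the lowest of the 10 in WT, and in KO lower for Abcb11 alone, at 6.64%. The pseudogene Gm17936 lies inside Abcb4 on the same strand and averaged 7.16 CPM. The fold was 0.969 with a 95% interval of 0.880 to 1.07 (limma adjusted p = 0.89). The intervals of Abcb4 and Abcb11 reach down to folds of 0.880 and 0.870, so a larger fall in the KO mean of either exporter lies outside them.

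Abcc2 encodes the canalicular exporter of bilirubin glucuronides, glutathione and sulfated or glucuronidated bile acids. The values were 688, 845 and 954 CPM in KO and 647, 757 and 836 CPM in WT (lowest, median and highest). KO mice 2, 4 and 5 lay above every WT mouse, and KO mice 1 and 6 lay in the lower part of the WT range. KO averaged 831 ± 106 CPM and WT 747 ± 65.4 CPM (SD, n = 6 each), a log2 difference of 0.15 (SE 0.09, limma adjusted p = 0.655). Its 95% interval ran from -0.04 to 0.34.

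Of the basolateral exporters, Abcc3 carries glucuronides and bile acids out to the blood and is known to be raised in cholestasis. Its lowest, median and highest values were 287, 318 and 442 CPM in KO and 232, 264 and 367 CPM in WT. KO mice 2 and 4 lay above every WT mouse and 4 WT mice lay below every KO mouse, with WT mouse 3 next below those 2 KO mice. KO averaged 339.9 ± 58.0 CPM and WT 285 ± 49.8 CPM (SD, n = 6 each), a log2 difference of 0.25, level with that of Slco2b1 (SE 0.12, limma adjusted p = 0.536). The difference was 0.33 without WT mouse 3 and 0.17 without KO mouse 2, with adjusted p-values of limma of 0.261 and 0.88.

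Abcc4, which exports bile acids together with glutathione as well as cyclic nucleotides and is also known to be raised in cholestasis, was the scarcest of the set. The values were 9.92, 13.5 and 15.9 CPM in KO and 10.9, 14.7 and 16.3 CPM in WT (lowest, median and highest). The ranges nearly coincided, with KO mouse 6 alone below every WT mouse. KO averaged 13.4 ± 2.13 CPM and WT 13.9 ± 2.48 CPM (SD, n = 6 each), a fold of 0.966 with a 95% interval of 0.802 to 1.16 (limma adjusted p = 0.945). The mean difference of this basolateral exporter was thus below 0 while that of Abcc3 was above 0, and whether the 2 genes differ in response was not tested.

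Levels can be set side by side only per exon length, here CPM divided by the kilobases of exon in the GENCODE basic annotation. On that scale Slco1b2 stood highest, at 224 ± 20.3 CPM per kb in KO and 205 ± 30.5 in WT, and Abcc4 lowest, at 2.33 ± 0.372 in KO and 2.43 ± 0.434 in WT (SD, n = 6 each). Averaged over all 12 mice, the order was Slco1b2, Abcb4, Abcc2, Abcb11, Slc10a1, Abcc3, Slco2b1, Slco1a1, Slco1a4 and Abcc4. Slco1b2 was above Abcb4 in 12 of 12 mice, and Abcc3 above Slco2b1 in 12 of 12. The neighbours Abcb11 and Slc10a1 did not keep their order: Abcb11 was the higher of them in 2 of 6 KO mice and in 6 of 6 WT mice. Slco2b1 exceeded Slco1a1 in 8 of 12 mice and Slco1a1 exceeded Slco1a4 in 9 of 12, so these lower neighbours were not separated beyond the spread between mice. Per kilobase, Slco1a1 stood at 1.48 ± 0.343 times Slco1a4 in KO and 1.48 ± 0.855 times in WT, with the lowest WT mouse at 0.722. Abcb4 exceeded Abcb11 in 12 of 12 mice, by 1.76 ± 0.203 times in KO and 1.77 ± 0.216 times in WT. Abcc2 exceeded Abcc3 in 12 of 12 mice, by 1.54 ± 0.133 times in KO and 1.67 ± 0.321 times in WT.

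**Figure D3:**
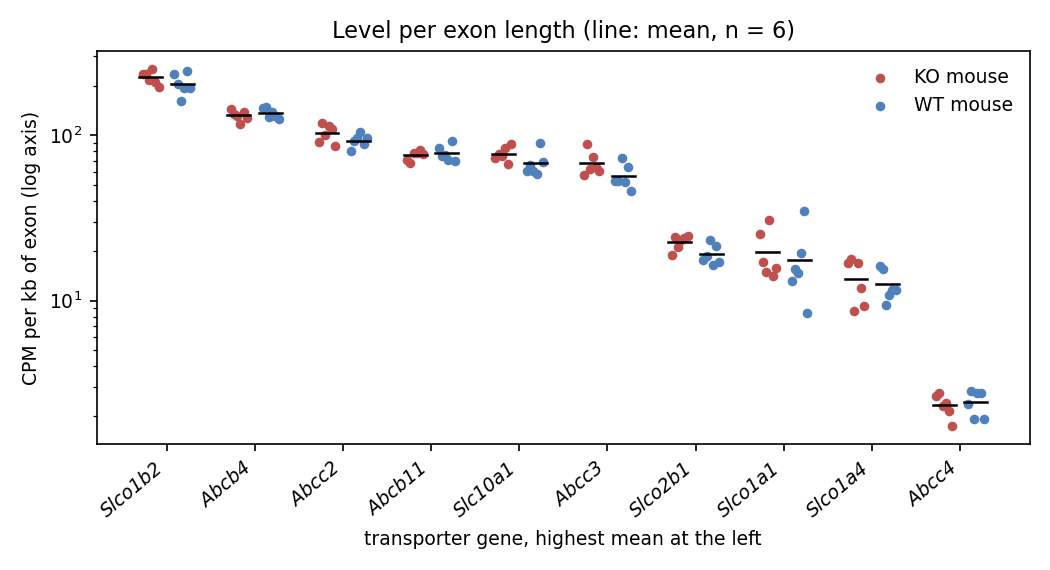
CPM per kilobase of exon for each transporter on a log axis, ordered by the mean over 12 mice, with KO left of WT. Means run from 224 (KO) and 205 (WT) for Slco1b2 to 2.33 (KO) and 2.43 (WT) for Abcc4, and Abcb11, Slc10a1 and Abcc3 lie close together.

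The 10 genes did not move as 1 block from mouse to mouse. After the mean of each genotype was taken off, Pearson's r between 2 transporters over the 12 libraries had a median of 0.13 over 45 pairs, and 30 pairs were positive and 15 negative. These values are descriptions, given without a p, and all genes of a library share its depth, its cell makeup and its scaling to a fixed sum. The closest pair was Slco2b1 and Abcc3 (r = 0.76), an uptake carrier and a basolateral exporter, followed by the chromosome 6 neighbours Slco1a4 and Slco1b2 (r = 0.66). Slco1a1 and Slco1b2 of the same cluster had r = 0.56. Slc10a1 and Abcb4 ran most against each other (r = -0.49). WT mouse 5 held the highest WT value for 4 of the 10, Slc10a1, Slco1a1, Slco1b2 and Abcb11, and WT mouse 6 held the lowest WT value for 5 of the 10. Among KO mice, mouse 2 held the highest KO value for 4 of the 10.

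**Figure D4:**
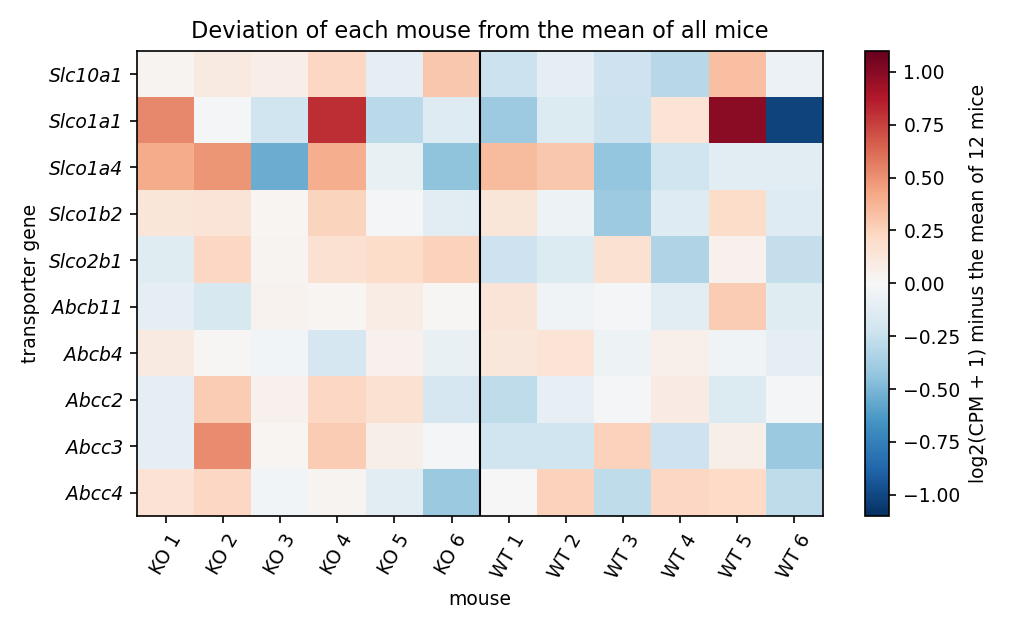
Log2(CPM + 1) of each transporter in each mouse minus the mean of the 12 mice, with the 6 KO mice left of the 6 WT mice. Slco1a1 carries the strongest colours in either genotype, with WT mouse 5 at 0.99 and WT mouse 6 at -1.02, while Abcb4 stays pale.

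Among the other 9176 tested genes, those whose deviations followed a transporter most closely were named by the same r over 12 libraries. For Slco1a1 they were Sult2a8, a bile acid sulfotransferase of mouse liver (r = 0.91), and Cyp2d9, a cytochrome P450 known for higher expression in male mice (r = 0.86). For Slc10a1 they were Cyp2j5, a cytochrome P450 (r = 0.92), and Sc5d, an enzyme of cholesterol synthesis (r = 0.89). Slco1a4 was followed by Cyp3a25 (r = 0.94) and Apool (r = 0.92), and Slco1b2 by Pcmtd2 (r = 0.94) and Ipp (r = 0.92). Slco2b1 was followed by Insig1, a sterol-sensing regulator of cholesterol synthesis (r = 0.94), and Gltpd2 (r = 0.93). The best matches of Abcb11 were weaker, Glo1, the glyoxalase that clears methylglyoxal (r = 0.85), and Rdh11 (r = 0.78). Abcb4 was followed by Lipa, the lysosomal acid lipase (r = 0.93), and Esf1 (r = 0.90), and Abcc2 by Rab23 (r = 0.87) and Ank3 (r = 0.85). Abcc3 was followed by Ugt1a6a, which makes glucuronides and shares exons with its neighbours (r = 0.91), and Apol9b (r = 0.91), and Abcc4 by Pon3 (r = 0.90) and Acbd5 (r = 0.90). Each is the highest or next highest of 9176 values, so a high r is no finding in itself.

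Genes around the transporters gave no call either. Of 23 other transporters of bile and organic solutes, 20 were in the table and 16 were tested. Limma called 0 of the 16, and 5 had an unadjusted p under 0.05, 3 higher and 2 lower in KO, against 9.8% of all genes, with a median difference of 0.06. Abcg5 and Abcg8, the 2 subunits of the canalicular sterol exporter, lay close to each other. Abcg5 was at 37.7 ± 9.34 CPM in KO and 27.5 ± 4.01 CPM in WT (log2 difference 0.42, limma adjusted p = 0.285), and Abcg8 at 64.7 ± 17.9 CPM in KO and 47.1 ± 7.11 CPM in WT (0.42, 0.347). Slc51a and Slc51b, the subunits of a basolateral bile acid exporter that is low in healthy mouse liver, averaged 0.565 and 0.924 CPM in KO and 0.603 and 0.880 CPM in WT, below the minimum for testing.

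All 12 nuclear receptors and factors in the table were tested, of 13 listed. Limma called 0 of them, 1 had an unadjusted p under 0.05, against 9.8% of all genes, and 10 of 12 differences were positive with a median of 0.09. That gene was Ppara, a fatty acid sensor, at 142 ± 14.2 CPM in KO and 125 ± 14.9 CPM in WT (log2 difference 0.19, limma adjusted p = 0.501). Next by p were the hepatocyte factor Hnf4a, at 618 ± 71.2 CPM in KO and 565 ± 43.7 CPM in WT (limma adjusted p = 0.694), and the co-receptor Klb, at 31.4 ± 4.69 CPM in KO and 28.1 ± 3.50 CPM in WT (0.711). Nr1h4 itself averaged 75.4 ± 7.5 CPM in KO and 70.6 ± 4.51 CPM in WT (limma adjusted p = 0.753). Nr0b2, the repressor that FXR induces, averaged 24.6 ± 11.3 CPM in KO and 25.3 ± 6.37 CPM in WT (0.928).

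Bile acid synthesis and conjugation genes had positive differences in 9 of 10 tested, with a median of 0.15, against 45.6% of all genes and -0.01, a share also seen in the hepatocyte markers (9 of 10). Limma called 0 of the 10, and 2 had an unadjusted p under 0.05, against 9.8% of all genes. These were Cyp2c70, the enzyme that makes muricholic acids in mice, at 166 ± 13.7 CPM in KO and 144 ± 10.6 CPM in WT (limma adjusted p = 0.265), and Baat, which conjugates bile acids with taurine or glycine, at 175 ± 11.5 CPM in KO and 153 ± 13 CPM in WT (0.272). Cyp27a1, which starts the alternative synthesis route, averaged 218 ± 25.1 CPM in KO and 194 ± 30.4 CPM in WT (0.646). Cyp7a1, the rate-limiting enzyme of synthesis, spread widely, at 167 ± 78.8 CPM in KO and 115 ± 35.8 CPM in WT (log2 difference 0.46, SE 0.29, limma adjusted p = 0.682).

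Of 12 scaffold and trafficking names, 10 genes were tested, 7 had negative differences and the median was -0.05. Limma called 0, and 2 had an unadjusted p under 0.05, both lower in KO, against 5.29% of all genes. One of them, the membrane-cytoskeleton linker Ezr, stood at 14 ± 2.23 CPM in KO and 20.2 ± 5.02 CPM in WT (log2 difference -0.48, limma adjusted p = 0.212). Rdx, the radixin gene of the canalicular membrane, stood at 222 ± 12.4 CPM in KO and 222 ± 22.7 CPM in WT, and Slc9a3r1, a scaffold of apical transporters, at 134 ± 14 CPM in KO and 119.7 ± 17.6 CPM in WT (limma adjusted p = 0.629). Bile duct cells use Ezr in the place of Rdx, and the 4 tested cholangiocyte markers, Spp1 among them, also had negative differences. The part of these cells in the Ezr value was not tested.

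Since Slco1a1 differs by sex in mice, sex-biased liver genes were read beside it. The Ddx3y and Xist values given above are those of male livers in all 12 libraries. Of 9 tested genes of the male-biased list, limma called 0 and 1 had an unadjusted p under 0.05 (9.8% of all genes), Mup3, a major urinary protein of a family of near copies whose counts are uncertain, at 801 ± 110 CPM in KO and 646 ± 149.9 CPM in WT (limma adjusted p = 0.452). Next by p were the cytochromes Cyp4a12a, at 63.2 ± 13.7 CPM in KO and 51.1 ± 23.1 CPM in WT (limma adjusted p = 0.709), and Cyp7b1, at 45.4 ± 10.2 CPM in KO and 39.4 ± 9.82 CPM in WT (0.787). The female-biased list had 1 tested gene, Cyp2b9, at 28.0 ± 14.5 CPM in KO and 18.5 ± 11.8 CPM in WT (limma adjusted p = 0.711).

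**Figure D5:**
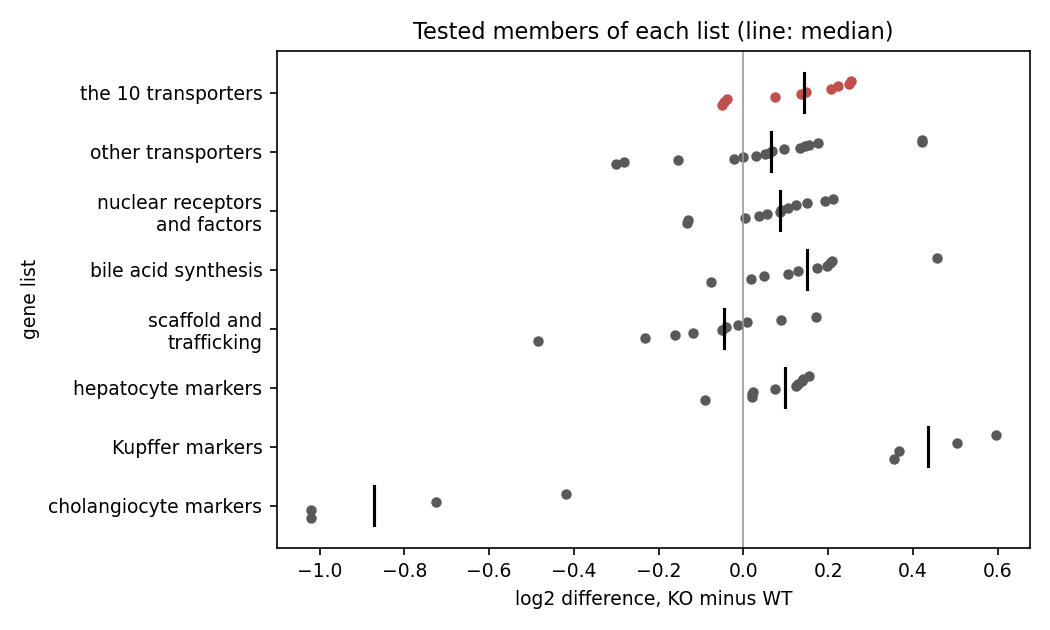
Log2 differences, KO minus WT, of the tested genes of the lists drawn, 1 point per gene, with the median as a black line. The sex-biased lists are not drawn, nor are markers of other macrophages (median -0.42) or of stellate cells and myofibroblasts (-0.44). Markers of endothelium (0.22), periportal hepatocytes (0.16) and pericentral hepatocytes (0.03) are also left out. The 10 transporters (median 0.14) lie near the bile acid synthesis genes (0.15) and the hepatocyte markers (0.10), between the Kupffer cell markers (0.44) and the cholangiocyte markers (-0.87).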

How the data were processed

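Liver RNA of 6 KO and 6 WT mice was sequenced, per the labels' protocols after globin and rRNA depletion with a directional kit, although the molecule label says polyA RNA. The submitters' processing notes name mm10, Partek 10.0, STAR 2.7.3a and DESeq2 1.14.1 without roles. Neither the counter, its annotation nor its strand setting is stated in the sources used here. The deposited values are CPM: each library has the same column sum. Among low values (0.1 to 1 CPM), 71.0% to 74.9% came out whole in units of the common step (tolerance 0.02), where an even spread gives 4%. The rest were fractional, so no count test was run.

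Of 20143 IDs, 20055 had a GENCODE M21 symbol and position. log2(CPM + 1) was compared for the 9186 genes averaging 10 CPM or more with limma 3.58.1 in R 4.3.3, two-sided and with a mean trend and no covariate; p-values were adjusted by Benjamini-Hochberg over these genes (threshold 0.05), after a test on simulated data. Copies were sought with BLASTN 2.17.0. Intervals are 95%. Litters are not labelled, and the p-values measure only how these 12 mice spread. The members and lists were chosen with earlier results of these data known. Named genes were the 10 transporters, Hsd17b13, up to 3 genes of smallest p per related list and the 2 genes closest to each transporter; some genes this rule names are not reported here. Other names (Slc51a, Slc51b, Nr1h4, Nr0b2, Cyp7a1, Rdx, Timd4, Krt7, Dpt, Spp1, Lrat, Ddx3y, Xist) were added after their values were seen. Alternatives changed the pseudocount, scaling, filter, mean trend, library weights, replicate block and libraries.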

Additional observations from a re-analysis of the deposited data

Results flagged for a closer look

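Of 20 groups of 6 values checked (10 transporters in 2 genotypes), 1 held a mouse far from its group. Slc10a1 in WT mouse 5 was at 199 CPM, and its gap to the next WT mouse, at 151 CPM, made up 0.668 of the range of the group, more than Dixon's 95% critical value allows. Chance flags about 1 in 20 groups. The same mouse held the highest WT value of Slco1a1, Slco1b2 and Abcb11.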

How the results depend on the processing

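Across 22 alternatives, 0 of 10 transporters and 0 genes of the 6 related lists were called in any fit. The cell type markers are not part of this count, and Krt7 and Dpt among them were called at the minimum of 1 CPM. The smallest adjusted p of limma for a transporter was 0.0843, for Slco2b1 with library weights. Of 217 refitted transporter differences, 211 kept their sign and 6 changed it, none of them called: Abcb11 came to 0.0086 and Abcb4 to 0.00075 with median-of-ratios scaling, and leaving out 1 mouse took Slco1a4 to between -0.014 and 0.19, Abcb11 to between -0.068 and 0.013 and Abcc4 to between -0.11 and 0.026. The other 6 transporters had positive differences in every fit. Slco1a1, Slco1a4 and Abcc4 have means under 100 CPM and gave no value at that minimum.

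Calls over all genes, 14 as reported, moved to 27 with median-of-ratios scaling (16 higher and 11 lower in KO, and 11 and 8 with quantile normalization, against 10 and 4 as reported), 31 at a minimum of 1 CPM, 4 at 100 CPM and 35 with library weights. They were 9 to 25 when 1 mouse was left out (9 without WT mouse 3, 25 without KO mouse 3) and 90 without KO mice 1 and 3. The minimums of 1 and 100 CPM left 15648 and 1508 genes to test; the cause of the other moves was not tested. With the replicate number as a block there were 11. Same-numbered deviations correlated at -0.51 to 0.39, over 0.1 in 4 of 6 pairs, and 0 of 6 KO mice matched their own number best. With only 6 pairs, these values cannot settle whether the numbers pair the mice.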
